A study of Rattus norvegicus with 90 samples.

Results

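The data are the liver transcriptomes of 9 rats killed 24 h after 1 intraperitoneal injection, 5 given 100 mg/kg of thioacetamide (the high dose) and 4 given 3 ml/kg of saline (the vehicle), out of 90 liver, kidney, and heart samples in the series. Beside them stand 5 livers of rats given 25 mg/kg (the low dose) and collected at 24 h, and 5 high-dose and 5 vehicle livers collected at 8 h. The members were chosen by the labels for organ, dose, and time, and the rows used were the 40071 Ensembl rat transcripts. The question of this comparison was which liver transcripts differ from vehicle 1 day after a dose chosen to injure the organ. All animals were male Sprague-Dawley rats bought at 10 weeks of age, all carried a jugular catheter implanted 7 days earlier, and all went without food for the last 8 h. One more vehicle library, MS-1, was left out because its estimated counts lay within 1 count of those of the low-dose 8 h library MS-9 for 99.96% of 15797 transcripts with at least 10 counts in either, whereas no pair of the 9 libraries reached more than 3.33%. The animals are a model of a single acute exposure in fasted, catheterised males. The RNA came from liver tissue with its cell types mixed, so that fewer cells of a type and less RNA per cell cannot be told apart.

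Thioacetamide is a hepatotoxicant that becomes harmful only after the liver's own monooxygenases oxidise it to a reactive S-oxide and S,S-dioxide, which bind proteins. The enzymes that do so are richest around the central veins, where hepatocytes die first. The injured liver is known for acute-phase and stress responses, for lower output of secreted plasma proteins and metabolic enzymes, for entry of phagocytes, and later for regeneration. No gene symbol accompanies a transcript in the tables, and none of the identifiers matched the RefSeq tables used here, so transcripts are described by their level, by the organ in which they are normally found, and, for 4 of them, by identifier. The role of no single transcript can therefore be given, and the preset lists of stress, acute-phase, and cell-type genes were not analysed here.

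Total estimated counts were 20962157 to 27301043 in the high-dose libraries and 20516138 to 32444050 in the vehicle libraries. Between 6.17% and 14.8% of the counts in high-dose libraries, and between 7.64% and 25.0% in vehicle libraries, fell on genomic intervals listed beside the transcripts. Vehicle replicates 3 and 5 stood apart, with 20.6% and 25.0%, and so did high-dose replicate 4, with 14.8%. In those vehicle libraries 8 transcripts of 49 bases held 20.5% and 21.6% of all TPM (a level corrected for transcript length and library size), against 1.84% to 11.8% in the other 7. The difference in the interval share, 9.44% ± 3.23 (SD, n = 5) against 15.4% ± 8.75 (SD, n = 4), gave p = 0.254 in a two-sided exact permutation test. The part of these libraries in the results was tested by leaving them out. The tissue label was checked with 484 transcripts that were at least 10 times higher in vehicle livers at 8 h than in vehicle kidney and heart. These took 31.4% to 53.9% of the counts in the 9 libraries. Their shares in vehicle kidney and heart at 24 h, 0.145% to 0.520%, are low by the choice, since those libraries helped to define the class.

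High-dose and vehicle livers differed at 24 h in 26.8% of the transcripts tested, in both directions and in nearly equal numbers, when each was compared with the typical transcript. Of 17137 transcripts that passed the filter on low counts, 2267 (13.2%) were higher and 2331 (13.6%) were lower after the high dose, with an adjusted p of no more than 0.01 in the quasi-likelihood test of edgeR and a fold change of at least 1.82. The median log2 fold change was 1.59 for the higher and -1.53 for the lower transcripts, beside 0.04 for all tested. At least a 4-fold difference was seen in 777 higher and 657 lower transcripts, and at least a 16-fold difference in 166 higher and 58 lower ones. Every high-dose library was above every vehicle library, in CPM (counts per library size, adjusted by the TMM scaling factors), for 2221 of the 2267 higher transcripts. Every high-dose library was below every vehicle library for 2248 of the 2331 lower ones on the same scale. Among all tested transcripts the groups were apart in this way for 4052 above and 3868 below. In the 4 high-dose and 2 vehicle libraries with under 10% of counts on intervals, 1788 transcripts were higher and 1943 lower. With MS-1 counted as vehicle the numbers fell to 1246 and 1483.

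Whether a transcript that was lower relative to the typical one was also a smaller part of all RNA depended on the scale. The scaling factors of the trimmed-mean method (TMM), which set the typical transcript near 0, ran from 1.14 to 1.44 in the high-dose libraries and from 0.65 to 0.78 in the vehicle libraries. Scaled to the total count alone, the median log2 fold change of all tested transcripts was 0.90, a shift of 0.86, and 7268 transcripts were higher and 786 lower. In TPM, 1884 of the 2331 lower transcripts had a lower mean after the high dose, and in 779 of them the groups were apart. The higher transcripts were apart in TPM in 2263 of 2267. Among all 40071 transcripts, tested or not, the groups were apart in TPM for 10625 above and 852 below. Most separation on that scale was thus upward whether or not a transcript was called. Directions below are relative to the typical transcript unless a scale is named.

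The size of the difference varied between the high-dose libraries. Each library was left out of the fit in turn and then compared with the libraries of the other group, as a difference of log2(CPM + 0.5), over the transcripts called without it. High-dose replicate 2 showed a median difference of 1.57 for the higher transcripts and -1.77 for the lower ones, and replicate 5 showed 1.53 and -1.70. Replicates 1 and 3 were at 1.30 and 1.25 for the higher transcripts. Replicate 4 had the smallest differences, 1.02 and -1.15. This is also the high-dose library with the most counts on intervals (14.8%, against 6.17% to 9.63% in the others) and the most TPM on the 49-base transcripts (11.8%, against 1.84% to 5.76%), and the part of these in its smaller difference was not tested. Because a held-out high-dose library was compared with the same vehicle libraries that made the calls, these medians describe the libraries and are no check of the calls.

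The direction of the difference went with how abundant a transcript is in liver. Levels were taken from 5 vehicle livers at 8 h, which are not among the 9 libraries. Of 136 tested transcripts at 1000 TPM or more there, 0 were higher and 90 (66.2%) were lower, with a median log2 fold change of -1.67. Between 100 and 1000 TPM, 11 of 791 were higher and 443 (56.01%) were lower, with a median of -1.09. Between 10 and 100 TPM, 223 of 3960 were higher and 945 were lower, with a median of -0.31. Between 1 and 10 TPM the numbers were closer, 1042 higher and 746 lower of 7727, with a median of 0.08. On this scale the abundant transcripts were mostly lower, and the scarce ones were not. Under 1 TPM, 991 were higher and 107 lower of the 4523 that passed the filter. Another 22064 transcripts under 1 TPM did not pass it, and a scarce transcript could pass through the high-dose libraries alone, so that the count for this class is not one over all its members. Scaled to the total count alone, the order of the medians was the same but the counts moved. At 1000 TPM or more 8 transcripts were then higher and 41 lower, and at 100 to 1000 TPM 128 and 217. At 10 to 100 TPM the numbers were 1282 and 308, so that the majority turned in this class. It also turned over all tested transcripts, of which 42.4% were then higher and 4.59% lower. The medians of these classes on that scale, in the order given, were -0.82, -0.25, and 0.55.

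**Figure D1:**
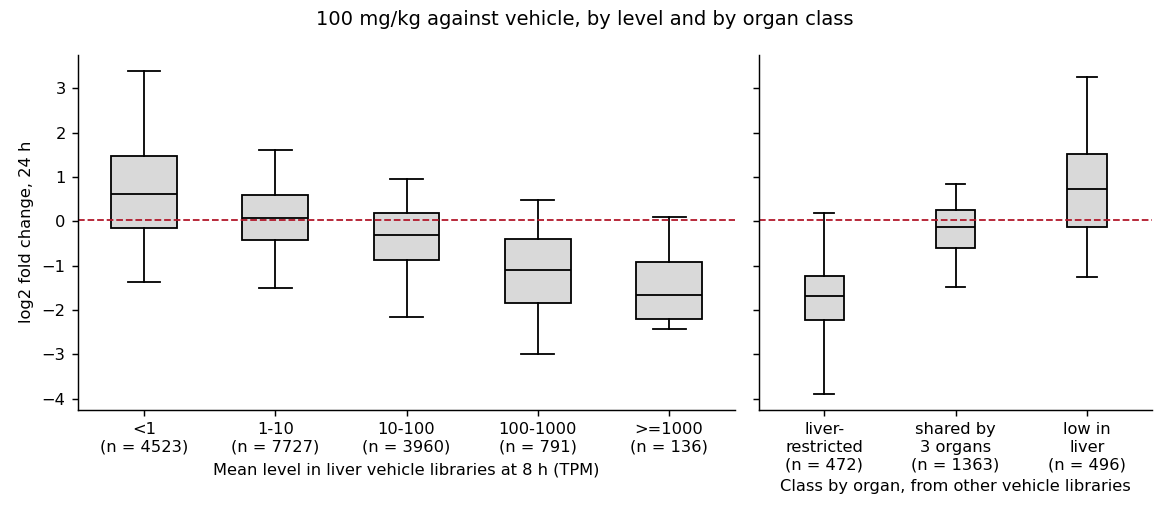
Box plots of the log2 fold change of high dose against vehicle at 24 h for the tested transcripts. The left panel groups them by mean TPM in vehicle liver at 8 h and the right panel by organ class (box, quartiles; whiskers, the central 90%; dashed line, median of all tested, 0.04). The medians go from 0.61 under 1 TPM to -1.67 at 1000 TPM or more, and the liver-restricted box lies wholly below the line.

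Transcripts found mainly in liver were lower far more often than the background. This class, called liver-restricted here, held 484 transcripts with at least 10 TPM in vehicle liver at 8 h and at least 10 times the level of kidney and heart, and in liver such transcripts are as a rule those of hepatocyte products. Of 472 tested, 358 (75.8%) were lower, beside 13.6% of all tested, and 9 (1.91%) were higher, beside 13.2%. Their median log2 fold change was -1.68. The class shared by the 3 organs, with at least 10 TPM in each and within 2-fold, had 182 (13.4%) lower of 1363, near the background, and 62 (4.55%) higher, under it, with a median of -0.13. Both classes came from libraries outside this comparison, and no test of a class was made. Scaled to the total count alone, 205 liver-restricted transcripts were lower and 25 higher, when 4.59% of all tested were lower and 42.4% higher. On that scale their median was -0.84, against 0.90 for all transcripts.

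The organ class and the level were not the same thing. At 10 to 100 TPM, 136 of 206 liver-restricted transcripts (66.02%) were lower, as were 146 of 1174 shared by the 3 organs (12.4%) and 663 of 2580 in neither class (25.7%). At 100 to 1000 TPM, the lower transcripts were 163 of 195 liver-restricted ones (83.6%), 35 of 172 shared ones (20.3%), and 245 of 424 in neither class (57.8%). Within a range of level, liver-restricted transcripts were thus lower more often than shared ones, and those in neither class lay between.

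The same counts, taken as shares of each library, show this pattern in another form and add no separate support. Among counts on transcripts of at least 200 bases, the liver-restricted class took 50.4%, 50.8%, 53.9%, and 49.5% in vehicle replicates 2 to 5. In high-dose replicates 1 to 5 it took 37.3%, 32.02%, 35.9%, 40.6%, and 31.4%. The groups did not overlap, and replicates 2 and 5, which had the largest fold changes, had the smallest shares. The low-dose libraries at 24 h, from rats given 25 mg/kg, lay between the groups at 42.4% to 43.6%. The class shared by the 3 organs took a larger share, from 8.36% to 11.3% in vehicle up to 13.1% to 14.7% after the high dose. A share is a part of the total count, and a class can gain share when another loses it. Relative to the typical transcript the shared class was not raised, with a median log2 fold change of -0.13 and 182 lower against 62 higher. In vehicle replicates 2 to 5, 104, 87, 74, and 86 transcripts together held 50% of the counts. After the high dose the number was 240, 346, 260, 167, and 321, so that the counts were spread over more transcripts in every treated library.

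**Figure D2:**
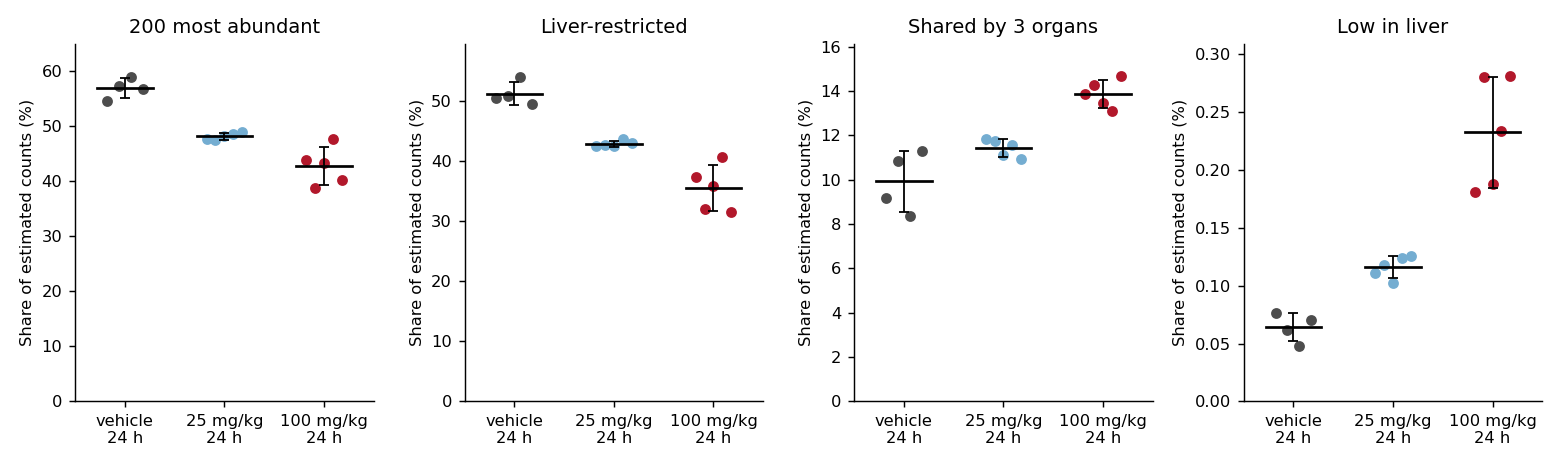
Share of estimated counts (%) on 4 classes of transcripts in each liver library at 24 h, by dose (points, libraries; line and bar, mean ± SD; n = 4, 5, and 5; axes start at 0). The 200 most abundant and the liver-restricted transcripts take less with dose, and those shared by the 3 organs or low in liver take more, with no overlap of high dose and vehicle.

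The 200 transcripts most abundant in vehicle liver at 8 h held 56.8% ± 1.81 (SD, n = 4) of these counts in vehicle and 42.7% ± 3.44 (SD, n = 5) after the high dose. For the 10 most abundant the shares were 22.5% ± 1.43 and 16.4% ± 0.457. Of the 50 most abundant, 33 were liver-restricted, 30 were called lower, and 0 were called higher, with a median log2 fold change of -1.51.

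More transcripts were detected after the high dose. At least 10 estimated counts were seen for 15321, 15489, 15298, and 16109 transcripts in vehicle replicates 2 to 5. In high-dose replicates 1 to 5 they were seen for 16944, 17802, 17699, 17003, and 17671. Every high-dose library was above every vehicle library. The counts on transcripts were 18948828 to 24347209 in the vehicle and 19220377 to 25033359 in the high-dose libraries. Detection was judged on counts not adjusted by the TMM factors, which were higher in the high-dose libraries. Whether more transcripts would be detected relative to the typical transcript was not tested. The difference was 1870 transcripts (17424 ± 414 against 15554 ± 380, SD), with p = 0.0159 in a two-sided exact permutation test, the smallest p that the 126 splits allow. In the 4 high-dose and 2 vehicle libraries with under 10% of counts on intervals it was 2220, where p cannot go below 0.133.

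Transcripts that vehicle liver hardly expresses, but kidney or heart does, took a larger share. This class, low in liver, had 1073 members with under 1 TPM in vehicle liver at 8 h and at least 10 TPM in kidney or heart. Together they held 0.0765%, 0.0617%, 0.0482%, and 0.0707% of the counts in vehicle replicates 2 to 5. They held 0.181%, 0.280%, 0.188%, 0.233%, and 0.281% in high-dose replicates 1 to 5. The groups did not overlap, and the low-dose libraries lay between, at 0.102% to 0.126%. Of the 1073, 496 passed the filter, many possibly through the high-dose libraries alone, and 131 of these (26.4%) were higher and 15 lower. Among other transcripts under 1 TPM in vehicle liver, 860 of 4027 that passed (21.4%) were higher, beside 13.2% of all tested, so that the count is not particular to the class.

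A small set went from next to nothing to a measured level. In 57 of the 40071 transcripts, all 4 vehicle libraries had under 3 counts and all 5 high-dose libraries had at least 10. The reverse was seen for 4 transcripts. These limits were set on counts not adjusted by the TMM factors. With scaling to the total count alone, more of all tested transcripts were higher (7268) than lower (786). Between the vehicle groups of the 2 times, 1 transcript met the same limits with 24 h as the low side, and 0 met them with 8 h as the low side. The 57 were chosen by these counts, so that their difference is no finding, and their levels elsewhere are given as a description. Their mean level after the high dose ran from 0.153 to 96.6 TPM, with a median of 1.49. Only 2 of them belonged to the class low in liver, and 41 had under 1 TPM on average in both vehicle kidney and vehicle heart.

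The same 57 transcripts were present in part at the earlier time and at the lower dose. In vehicle livers at 8 h, 1 to 8 of them reached 10 counts in a library. In the high-dose libraries at 8 h, 17, 34, 41, 36, and 39 did, the lowest number in the shallowest library, with 16641408 counts. In the low-dose libraries at 24 h, 25, 34, 19, 39, and 29 did. In all 5 libraries of a group, 12 reached 10 counts at 8 h and 14 at the low dose. Their summed counts were 637.97 to 1567 in low-dose and 1925 to 4656 in high-dose libraries at 24 h. In vehicle they were 16.7 to 39.98 at 24 h, low by the choice, and 66.6 to 393 at 8 h, where 27 of the 57 had under 3 counts in all 5 libraries.

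**Figure D3:**
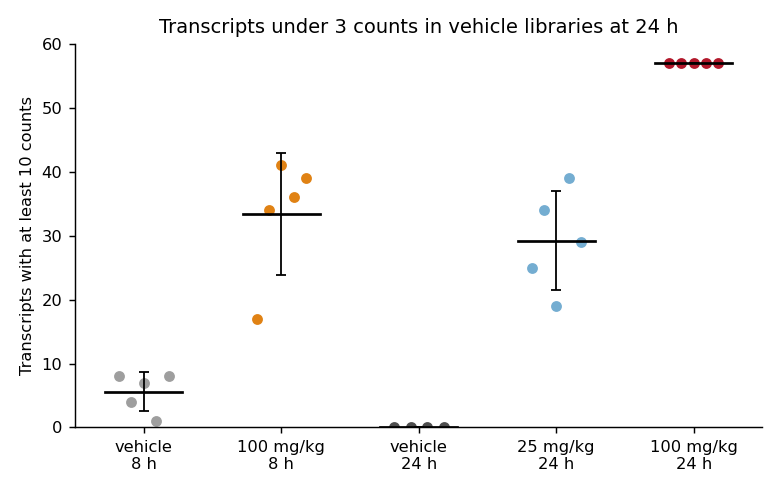
Number of the 57 transcripts, chosen for under 3 counts in vehicle and at least 10 in every high-dose library at 24 h, that reach 10 estimated counts in each liver library (points, libraries; line and bar, mean ± SD). The vehicle libraries at 24 h are at 0 and the high-dose libraries at 57 by the choice, and the 8 h high-dose and 24 h low-dose libraries lie between 17 and 41.

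ENSRNOT00000073951 and ENSRNOT00000038480 gained the most TPM among the transcripts called with the groups apart, which is how they were chosen. ENSRNOT00000073951, of 1369 bases and liver-restricted by the rule above, stood at 292, 217, 199, and 176 TPM in vehicle replicates 2 to 5. It stood at 2054, 3587, 1613, 1414, and 2404 TPM in high-dose replicates 1 to 5. Every treated liver was far above every vehicle liver, and replicate 2 was the highest. The log2 fold change was 2.21 (SE 0.21, edgeR adjusted p = 2.35e-05), and 3.26 on log2(TPM + 1). It was thus 1 of the 9 liver-restricted transcripts that were higher. In vehicle kidney its mean was 19.5 TPM and in vehicle heart 0.931 TPM, where the high dose gave log2 fold changes of 0.20 (edgeR adjusted p = 0.651) and 0.27 (adjusted p = 0.766) at 24 h.

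ENSRNOT00000038480, of 1724 bases, stood at 163, 116, 122, and 122 TPM in vehicle replicates 2 to 5 and at 1175, 2152, 991, 1032, and 1683 TPM in high-dose replicates 1 to 5. The groups were apart by the choice, and again replicate 2 was the highest. The log2 fold change was 2.32 (SE 0.19, edgeR adjusted p = 1.28e-05). Unlike the first, it is also a transcript of vehicle kidney, at 109.2 TPM on average, and it was at 1.84 TPM in vehicle heart. In kidney at 24 h its log2 fold change was 0.48 (edgeR adjusted p = 0.0308), which does not pass the threshold.

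ENSRNOT00000041891 and ENSRNOT00000046169, among the most abundant liver transcripts, lost the most TPM by the same rule. ENSRNOT00000041891, of 1184 bases, stood at 21038, 16118, 19795, and 14845 TPM in vehicle replicates 2 to 5. It stood at 11888, 12343, 10790, 11012, and 10808 TPM in high-dose replicates 1 to 5. The treated livers were all lower by the choice and were close to each other. The vehicle libraries with many counts on intervals were the lower ones of their group. The log2 fold change was -1.73 (SE 0.15, edgeR adjusted p = 1.76e-05). On log2(TPM + 1) it was -0.65, with an adjusted p of 0.0357 in limma, so that the call is lost on that scale. With scaling to the total count it was -0.87, still past the thresholds.

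ENSRNOT00000046169, of 402 bases, stood at 15276, 9502, 13476, and 9004 TPM in vehicle replicates 2 to 5 and at 6035, 7505, 6037, 5198, and 7009 TPM in high-dose replicates 1 to 5. Again the groups were apart by the choice. The log2 fold change was -1.98 (SE 0.12, edgeR adjusted p = 4.03e-06). It was -1.11 with scaling to the total count and -0.87 in TPM, where limma gave an adjusted p of 0.00955 with a pseudocount of 1 and of 0.0102 with 0.1, which loses the call. It was nearly confined to liver, with means of 4.996 TPM in vehicle kidney and 1.03 TPM in vehicle heart, and it was not tested there at 24 h.

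**Figure D4:**
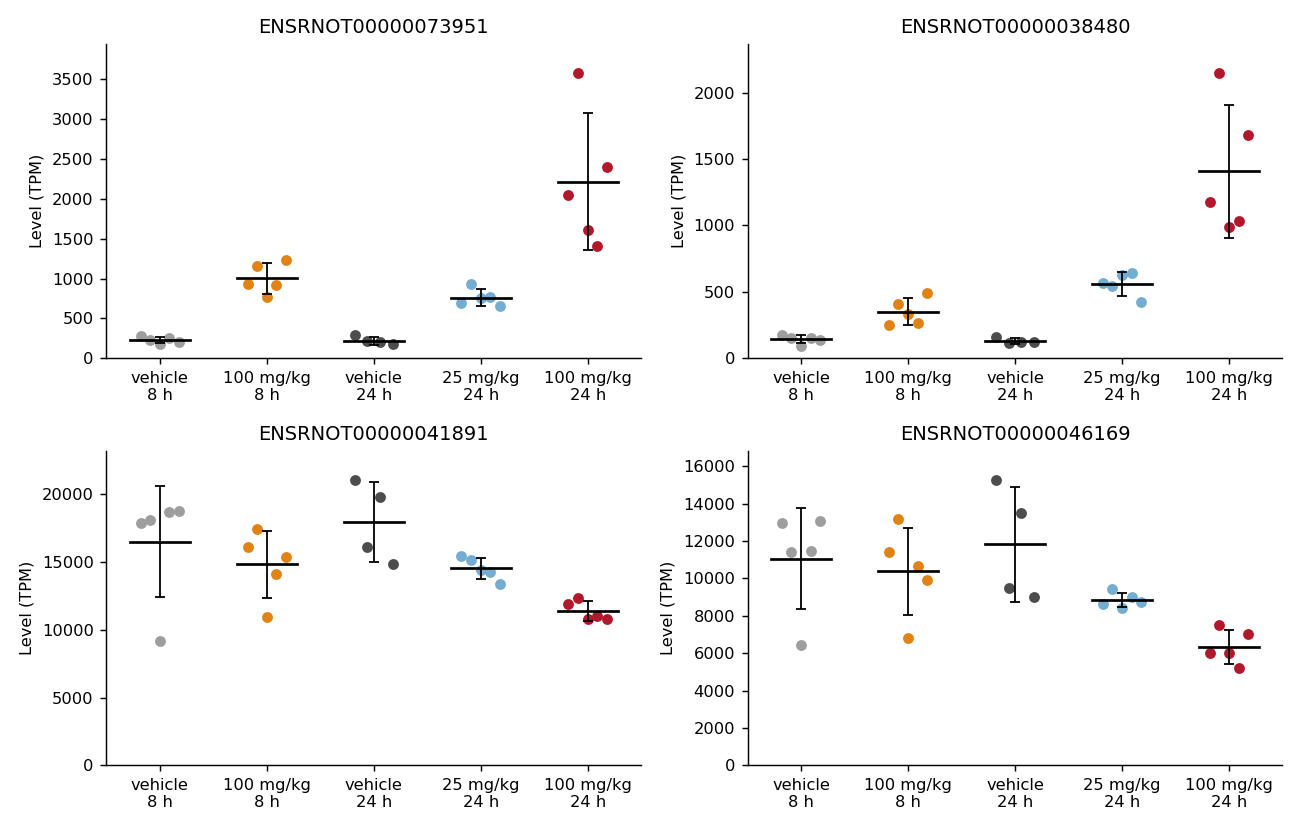
Level (TPM) of the named transcripts in each liver library by dose and time (points, libraries; line and bar, mean ± SD; linear axes from 0). The transcripts in the upper panels are higher in every high-dose library at 24 h than in every other library drawn, and those in the lower panels are lower in every high-dose library at 24 h than in every vehicle library of that time. High dose and vehicle at 24 h are apart by the choice.

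Relative to the typical transcript, the named transcripts had unlike values at 8 h. They were chosen with the same 24 h libraries, so that the interactions lean towards a larger effect at 24 h. Their sizes and p-values thus describe these transcripts and add no separate support. Timing was not compared between the transcripts by a test. The interaction was not fitted with total count scaling or on TPM. ENSRNOT00000073951 was already higher at 8 h, with a log2 fold change of 1.97 (SE 0.15), and the difference between the times was 0.34 (SE 0.24, edgeR interaction, adjusted p = 0.359). ENSRNOT00000038480 was at 1.16 (SE 0.23) at 8 h and its effect was larger at 24 h by 1.26 (SE 0.30, edgeR adjusted p = 0.00641), a call that is lost when the libraries with over 10% on intervals are left out (adjusted p = 0.0205), when MS-1 is included (adjusted p = 0.0503), and in 9 of the 19 fits without 1 library (adjusted p up to 0.0161). The transcripts that were lower did not pass the threshold at 8 h. ENSRNOT00000041891 had -0.33 then (SE 0.17, edgeR adjusted p = 0.134) and an interaction of -1.30 (SE 0.21, adjusted p = 0.000372). ENSRNOT00000046169 had -0.26 (SE 0.15, edgeR adjusted p = 0.162) and an interaction of -1.62 (SE 0.18, adjusted p = 1.50e-05). In mean TPM, vehicle against high dose, ENSRNOT00000073951 stood at 226 and 1002 at 8 h and at 221 and 2214 at 24 h. In the same order, ENSRNOT00000038480 stood at 143 and 349, then at 131 and 1406. ENSRNOT00000041891 stood at 16489 and 14798, then at 17949 and 11368. ENSRNOT00000046169 stood at 11065 and 10391, then at 11815 and 6357.

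Over all transcripts, the response at 24 h was partly that of 8 h and partly its own. The 8 h comparison used 5 high-dose and 5 vehicle libraries, none of them shared with 24 h, and called 2046 transcripts higher (12.4%) and 1277 lower (7.75%) of 16468. Of the 2267 transcripts higher at 24 h, 1096 (48.3%) were also higher at 8 h and 7 were lower. These 1096 were 53.6% of the transcripts higher at 8 h. Of the 2331 transcripts lower at 24 h, 729 (31.3%) were also lower at 8 h, which is 57.1% of those lower at 8 h, and 8 were higher. The median log2 fold change at 8 h was 1.11 for the transcripts higher at 24 h and -0.71 for those lower.

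**Figure D5:**
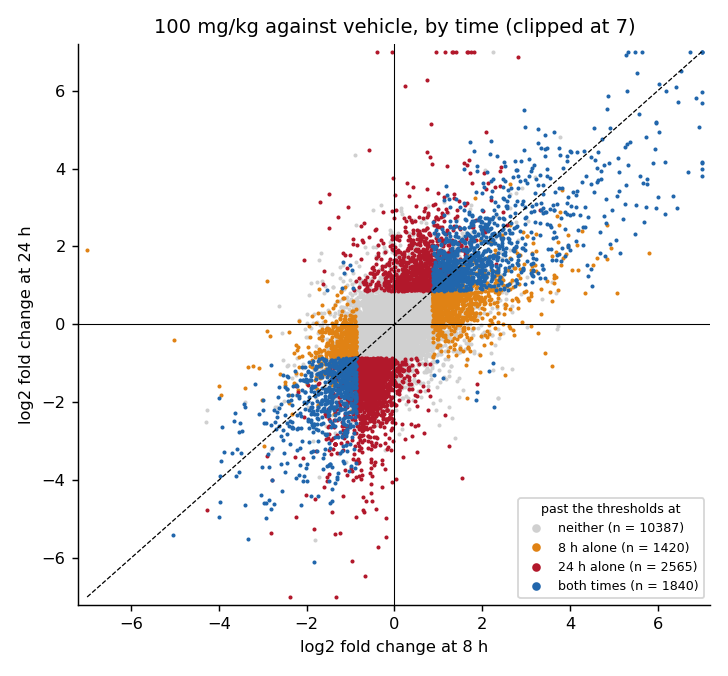
Log2 fold change of high dose against vehicle at 8 h (x axis) and at 24 h (y axis) for 16212 transcripts tested at both times, coloured by the times at which they pass the thresholds (dashed line, equal change; 28 points beyond 7 are drawn at the edge). Of these, 1840 pass at both times, 2565 at 24 h alone, and 1420 at 8 h alone, and nearly all points that pass at both lie in the quadrants of equal sign.

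The difference between the times was tested as an interaction, relative to the typical transcript alone. By the paper's schedule, the 8 h rats were dosed in the morning and had no food afterwards. The 24 h rats were dosed in the late afternoon and had food until the last 8 h. Each time had its own vehicle group, but time since the dose cannot be told apart from hour of dosing and feeding. Of 18398 transcripts, the effect was more positive at 24 h in 879 (4.78%) and more negative in 999 (5.43%), with an adjusted p of no more than 0.01 in edgeR. With the libraries with over 10% on intervals left out, the numbers were 383 and 624. Among the transcripts lower at 24 h, the effect was more negative at 24 h than at 8 h in 622 of 2331 and more positive in 8. Among the transcripts higher at 24 h it was more positive at 24 h in 337 of 2267 and more negative in 62. These sets were chosen with the same 24 h libraries, so that the counts describe them and do not add support. In all, 15 transcripts were called in opposite directions at the times.

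The doses were also compared directly. Between the high and the low dose at 24 h, 472 transcripts were higher (2.76%) and 656 were lower (3.84%) of 17101 with the high dose, 5 libraries against 5. Scaled to the total count alone, the numbers were 1329 and 351. Without low-dose replicate 3 or 1, or high-dose replicate 5 or 2, the 2 directions together fell from 1128 to 629, 711, 653, and 688. Of the liver-restricted transcripts 141 of 471 (29.9%) were lower with the high than with the low dose and 5 were higher, with a median log2 difference of -0.80. The 141 became 87 with scaling to the total count, 79 without low-dose replicate 3, and 86 without high-dose replicate 5. Of those shared by the 3 organs, 44 of 1360 (3.24%) were lower and 10 were higher, with a median of -0.05.

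The named transcripts were also compared between the doses. They were chosen with the same high-dose and vehicle libraries, so that these values describe them and add no separate support. The level of ENSRNOT00000073951 was 651 to 926 TPM in the low-dose libraries and that of ENSRNOT00000038480 was 421 to 642 TPM, above every vehicle and below every high-dose library. Their log2 differences between high and low dose were 1.28 (SE 0.17, edgeR adjusted p = 0.00124) and 1.07 (SE 0.18, adjusted p = 0.00233). ENSRNOT00000041891 stood at 13388 to 15419 TPM and ENSRNOT00000046169 at 8443 to 9412 TPM in the low-dose libraries, above every high-dose library. For both, the low-dose libraries overlapped in TPM with vehicle, whose lowest library, replicate 5, was at 14845 and 9004 TPM. Relative to the typical transcript, both were lower at the low dose than in vehicle, past the thresholds. The log2 fold changes were -1.13 (SE 0.09, edgeR adjusted p = 7.38e-05) and -1.25 (SE 0.09, adjusted p = 3.86e-05). Between high and low dose the log2 differences, -0.56 (SE 0.12, edgeR adjusted p = 0.00542) and -0.70 (SE 0.08, adjusted p = 0.000852), were under the limit of 0.866 set for a call.

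Transcript length and shared reads were also looked at. The median length was 2194 bases for the transcripts that were higher, 1903 for those that were lower, and 2142 for all tested. The 9 TPM values of 52 of the 4598 called transcripts were the same, to 4 decimals, as those of another called transcript, so that their reads could not be assigned to 1 of them. Among the genomic intervals, in a fit with all targets, 514 of 7848 tested were higher (6.55%) and 1133 were lower (14.4%).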

How the data were processed

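Poly-A RNA of frozen liver was sequenced as stranded 75-base read pairs. The authors pseudo-aligned the reads with Kallisto (version 0.42.2 in the submitters' processing notes) to the rat transcriptome of the build Rnor_6.0. Per target and library they deposited the estimated count, which is unnormalized and often fractional, the TPM, scaled by effective length and library, and columns with length and effective length. Kallisto divides reads among similar transcripts, so values of near-identical transcripts are uncertain. The authors' own Sleuth test was not repeated.

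Estimated counts of transcripts, rounded, were tested in R 4.3.3 with edgeR 4.0.16 (default low-count filter, TMM scaling, quasi-likelihood test, Benjamini-Hochberg adjustment), with calls at adjusted p up to 0.01 and fold changes from 0.60 in natural log units (0.866 in log2) in size. SE is the absolute log2 fold change over the square root of F. The interaction had no limit on size. Alternatives used DESeq2 1.42.0 and limma 3.58.1 with TPM on the log2 scale, after adding 1 or 0.1. The scripts were tested on simulated counts in which 200 transcripts changed 3-fold. The fit of high dose against vehicle recovered 188, that of high against low dose 197, and the interaction 102 (51.0%). The interaction can thus miss many differences of that size. The simulated counts held no shift of the typical transcript like that in the data. Classes came from mean TPM over 5 liver (8 h), 10 kidney, and 10 heart vehicle libraries. Named were the transcripts with the largest difference in mean TPM among those called whose groups did not overlap, 2 in each direction. Groups follow the labels, and replicate numbers follow accession order. The comparison, classes, and rules were chosen with earlier results of these data known. Total counts of 20516138 to 32444050 limit precision for scarce transcripts, and p-values measure the spread between these samples. Python 3.11.15 with numpy 2.4.6, scipy 1.17.1, pandas 2.3.3, and matplotlib 3.10.9 made tables, exact tests, and plots.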

Additional observations from a re-analysis of the deposited data

Results flagged for a closer look

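Among 34 groups of values looked at for a library far from the others, 2 were found, and chance alone picks out about 1 group in 20. Vehicle replicate 5, with the most total counts, listed 21813 transcripts with at least 1 estimated count, against 20614 to 20667 in the other vehicle libraries. Vehicle replicate 2 had 163 TPM of ENSRNOT00000038480, against 116 to 122 TPM in the other vehicle libraries.

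The high-dose effect differed between 24 and 8 h, times that also differed in hour of dosing and feeding, in 1878 transcripts (interaction in edgeR). It differed by 1.26 on the log2 scale in ENSRNOT00000038480, by -1.30 in ENSRNOT00000041891, and by -1.62 in ENSRNOT00000046169. These transcripts were chosen with the same 24 h libraries. Outside the transcripts, 514 genomic intervals (6.55% of those tested) were higher after the high dose than in vehicle and 1133 (14.4%) were lower, with vehicle replicates 3 and 5, which stand apart by 20.6% and 25.0% of counts on intervals, in the comparison.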

How the results depend on the processing

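The counts of transcripts depended most on the scaling. The higher and lower transcripts numbered 7105 and 531 in limma on log2(TPM + 1), 9157 and 598 on log2(TPM + 0.1), and 7268 and 786 with total count scaling. The liver-restricted ones numbered 31 higher and 165 lower, 31 and 161, and 25 and 205 under these 3 settings. With MS-1 included, 1246 were higher and 1483 lower. Without 1 library in turn, the ranges were 1923 to 2318 higher, 2064 to 2409 lower, 8 to 9 and 330 to 370 for the liver-restricted transcripts, and 629 to 1455 between the doses. They were 1468 to 1942 for the interaction, which gave 1007 with the libraries over 10% on intervals left out, where fewer samples were tested. The difference in detected transcripts was 1775 to 2054 without 1 library (exact p up to 0.0357), and 2220 (p = 0.133) in the libraries under 10%. The difference in interval share was -8.50 to -2.73 percentage points, not past the threshold in any. DESeq2 gave 2634 higher and 2630 lower. Between the doses the majority turned from lower (472 higher, 656 lower) to higher with total count scaling (1329 and 351), and against vehicle the higher transcripts went from 49.3% to between 90.2% and 93.9% of those called with the 3 scalings above. ENSRNOT00000041891 (-0.65 in limma with both pseudocounts, adjusted p = 0.0357 and 0.0376) and ENSRNOT00000046169 (-0.87 with 0.1, adjusted p = 0.0102) lost their call in limma, and the transcripts that rose kept theirs throughout. No paired analysis was possible because the labels give no replicate numbers shared between the groups. The libraries over 10% on intervals, and the use of that share as a covariate, were chosen as alternatives after seeing the data. The low number of vehicle libraries, 4, and the lack of gene names limit what can be said.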
